A study of Mus musculus with 6 samples.

Results

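The genes described here encode the ligands and receptors of 3 signalling systems: *Pdgfa*, *Pdgfb* and *Pdgfc* with *Pdgfra* and *Pdgfrb*, *Cxcl12* with *Cxcr4* and *Ackr3*, and *Kitl* with *Kit*. They are 10 of the 35565 Ensembl genes of the count table, and all 10 were found by their symbol. They were chosen by their pathway and from their difference between the 2 groups, so that their own values are given below as a description without a test. Bulk RNA-seq was carried out on day 5 gastruloids of mouse cells, with 3 libraries each for Control (NT) and for the *T-UCstem1* knockdown KD-1, and the question of the comparison is what changes in gastruloids when the lncRNA *T-UCstem1* is silenced. Gastruloids are aggregates of embryonic stem cells (ESCs) that elongate and form derivatives of the germ layers in culture, without extra-embryonic tissue.

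Control (NT) gastruloids came from non-targeting ESCs, which the sample labels call WT, and KD-1 gastruloids came from 1 of the knockdown clones. Both lines derive from the ESC line TBV2 129/SvP, and the aggregates of both received a pulse of CHIR99021, which blocks GSK3 and so activates the WNT pathway. Each group is a single line, so the silencing and other differences of the lines cannot be told apart. How many gastruloids went into a library is not given in the sources used here, and the design text names 3 biological replicates per group without saying that they were separate cultures, so the spread between libraries may be partly technical. *T-UCstem1* RNA was not analysed here.

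PDGF ligands are secreted growth factors that bring receptor tyrosine kinases together as dimers. PDGF-A and PDGF-C act mainly through PDGFRα, a receptor of paraxial mesoderm and of primitive endoderm, and PDGF-B also acts through PDGFRβ, a receptor of mural cells and other mesenchyme. CXCL12 is a chemokine that guides migrating cells through the G protein-coupled receptor CXCR4, while ACKR3 binds the same ligand and removes it from the surroundings. KIT, a receptor tyrosine kinase related to the PDGF receptors, and its ligand KITL, which exists in membrane-bound and shed forms, are known for their part in germ cells, melanoblasts and blood progenitors.

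Libraries held between 20982249 and 85561026 estimated counts and are named by their depth within their group. Within a group, the chi-square between library pairs was above the noise of sampling, at 4.85 to 11.05 per degree of freedom in KD-1 and 15.3 to 36.5 in Control (NT). The pairs that hold the middle Control (NT) library stood at 36.3 and 36.5. Of 15110 genes tested with edgeR, 5704 were called (37.7%), of which KD-1 had 2976 higher (19.7%) and 2728 lower (18.1%), where a call required a change of over 1.5-fold in either direction besides an adjusted p under 0.05. The libraries of the 2 groups did not overlap in 70.6% of the genes tested. All 8 genes used to check the material (*T*, *Cdx2*, *Tbx6*, *Sox2*, *Pou5f1*, *Meox1*, *Cdh1* and *Cdh2*) passed the filter on low counts. *Tbx6*, a factor of presomitic mesoderm, was the lowest of them, at 0.692 and 0.256 TMM-normalized CPM (counts scaled to library size) in Control (NT) and KD-1.

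The 250 bases before the annotated start are shown here for the pair of genes with the strongest falls for which an entry was used, *Pdgfra* and *Cxcl12*, and for the pair with the strongest rises, *Kit* and *Cxcr4*, to show the starts of the genes that moved most in each direction. The sequences are those of the RefSeq promoter table on GRCm38.p6, whose coordinates differ from the GRCm39 positions given further on, and an entry was used for 8 of the 10 genes. They run 5′ to 3′ on the strand of the gene, at chr5:75152001-75152250 (plus strand) for *Pdgfra*, chr6:117168285-117168534 (plus) for *Cxcl12*, chr5:75574737-75574986 (plus) for *Kit* and chr1:128592300-128592549 (minus) for *Cxcr4*. Capitals mark the TATA box (TATAAA), the GC box (GGGCGG) and the TCF/LEF core (CTTTGA), each searched on both strands.
Pdgfra: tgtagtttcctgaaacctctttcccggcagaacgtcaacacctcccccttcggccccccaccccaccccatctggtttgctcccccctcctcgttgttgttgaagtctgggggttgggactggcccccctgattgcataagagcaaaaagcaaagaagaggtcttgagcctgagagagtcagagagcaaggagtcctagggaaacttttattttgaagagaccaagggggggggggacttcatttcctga
Cxcl12: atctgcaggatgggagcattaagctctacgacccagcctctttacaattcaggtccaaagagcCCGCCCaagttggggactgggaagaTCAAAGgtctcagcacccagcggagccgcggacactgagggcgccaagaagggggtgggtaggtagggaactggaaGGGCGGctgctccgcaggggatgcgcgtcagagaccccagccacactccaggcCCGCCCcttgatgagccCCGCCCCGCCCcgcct
Kit: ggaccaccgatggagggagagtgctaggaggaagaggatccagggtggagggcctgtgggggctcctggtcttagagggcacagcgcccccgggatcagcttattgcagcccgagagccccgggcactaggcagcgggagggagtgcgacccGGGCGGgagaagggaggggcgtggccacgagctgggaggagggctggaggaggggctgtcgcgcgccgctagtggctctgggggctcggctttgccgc
Cxcr4: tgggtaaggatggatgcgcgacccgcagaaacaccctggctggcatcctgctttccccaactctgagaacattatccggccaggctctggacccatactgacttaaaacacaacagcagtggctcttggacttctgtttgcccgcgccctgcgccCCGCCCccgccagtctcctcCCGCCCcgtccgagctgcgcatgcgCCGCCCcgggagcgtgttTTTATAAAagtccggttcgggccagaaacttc

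These letters were searched in all 32841 promoter entries of the same length, of which 12.37% held a TATA box, 32.75% a GC box and 13.83% a TCF/LEF core. In *Cxcl12* there were 5 GC boxes, a pair of which overlap near the start, and 1 TCF/LEF core 162 bases before the start. *Cxcr4* held 3 GC boxes and TATA letters on both strands, overlapping each other, at 32 and 30 bases before the start. *Kit* held 1 GC box, 98 bases before the start, and *Pdgfra* held none of the 3 motifs. A short T-box motif (TCACACC), found in 3.33% of all entries, and an octamer (ATGCAAAT), found in 1.6%, were in none of the entries used. *Kitl* and *Ackr3* also held a TATA box, at 25 and 8 bases before the start. The number of CpG dinucleotides was 4 in *Pdgfra*, 14 in *Cxcl12*, 19 in *Cxcr4* and 17 in *Kit*, where the median promoter entry held 6.

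Both PDGF receptors were nearly lost from KD-1 libraries, while the ligands *Pdgfa* and *Pdgfc* were 2.26-fold and 2.45-fold higher. *Pdgfra* (ENSMUSG00000029231, GRCm39 chromosome 5, 75311994 to 75358876, plus strand) was covered by 1436, 1738 and 3482 counts in the Control (NT) libraries of lowest, middle and highest depth, and by 37, 34 and 87 in those of KD-1. Scaled to depth, this was 69.3, 51.5 and 62.8 CPM against 0.883, 0.782 and 1.00 CPM. Every Control (NT) library was at least 51.4-fold above every KD-1 library. The means were 61.2 ± 9.02 and 0.889 ± 0.110 CPM (SD, n = 3 each). The log2 fold change was -6.07 (standard error 0.15), or 67.1-fold lower. Among the genes tested, 46 had a more negative log2 fold change. In bulk libraries, fewer cells that express a gene and less RNA per cell cannot be told apart, and this holds for every value that follows.

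*Pdgfrb* (ENSMUSG00000024620) had 297, 478 and 959 counts in Control (NT), against 21, 20 and 51 in KD-1. These were 14.3, 14.2 and 17.3 CPM against 0.501, 0.460 and 0.587 CPM, so that the groups lay 24.1-fold apart at their nearest libraries. The log2 fold change was -4.85 (standard error 0.16), 28.9-fold lower in KD-1. Neither receptor was at 0 in any KD-1 library, the smallest count of both being 20.

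The PDGF ligands went the other way. *Pdgfa* (ENSMUSG00000025856, chromosome 5, 138961758 to 138983435, minus strand), which encodes the ligand of PDGFRα made by many epithelia, had 8.58, 10.5 and 8.21 CPM in Control (NT), against 21.3, 19.5 and 20.9 CPM in KD-1. All KD-1 libraries lay above all Control (NT) libraries, the log2 fold change being 1.18 (standard error 0.11). *Pdgfc* (ENSMUSG00000028019, chromosome 3, 80943668 to 81121473, plus strand), whose product is secreted as a latent form and needs cleavage, had 9.02, 9.92 and 7.26 CPM in Control (NT), against 21.5, 20.2 and 21.9 CPM in KD-1. The groups did not overlap, and the log2 fold change was 1.29 (standard error 0.12).

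*Pdgfb* (ENSMUSG00000000489, chromosome 15, 79880009 to 79899181, minus strand), the ligand through which endothelium recruits mural cells, was barely detected. It had 5, 0 and 3 counts in Control (NT), against 5, 7 and 16 in KD-1, did not pass the filter on low counts and has no fold change here. Its groups overlapped, since the shallowest Control (NT) library had the highest value of all, 0.241 CPM. A count of 0 in the middle Control (NT) library allows up to 0.0865 CPM of its total by a limit of 3 counts. By the 95% exact binomial interval it allows up to 0.106 CPM, and the 16 counts of the deepest KD-1 library span 0.107 to 0.304 CPM (counting error only). A difference in *Pdgfb* was not detectable at this depth.

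**Figure D1:**
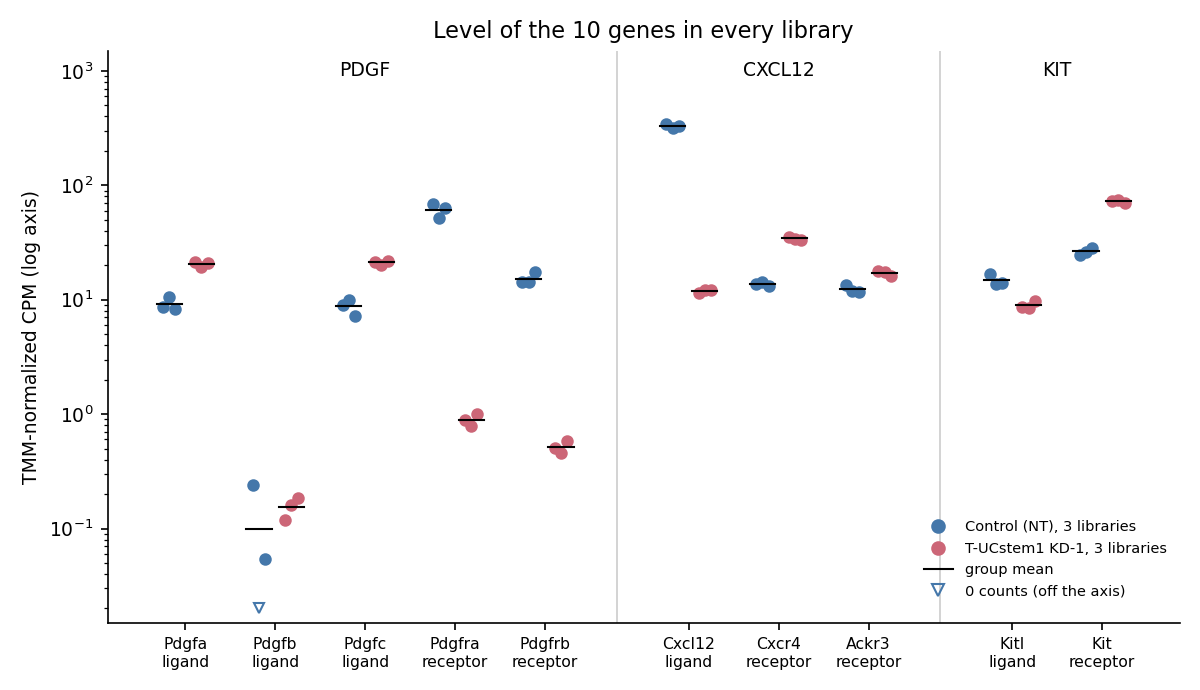
TMM-normalized CPM on a log axis (vertical) of the 10 genes (horizontal, by system and role) in the 3 Control (NT) and 3 KD-1 libraries, points being libraries from the lowest to the highest depth and bars group means. *Pdgfra*, *Pdgfrb* and *Cxcl12* fall far below their Control (NT) values (61.2 to 0.889, 15.3 to 0.516 and 328 to 11.9 CPM), while the other tested genes stay within 3-fold of theirs.

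In the CXCL12 system the ligand fell and the signalling receptor rose. *Cxcl12* (ENSMUSG00000061353, chromosome 6, 117144945 to 117158328, plus strand) had 7102, 10670 and 18096 counts in Control (NT), against 483, 531 and 1046 in KD-1, that is 343, 316 and 327 CPM against 11.5, 12.2 and 12.0 CPM. The nearest libraries of the groups were 25.9-fold apart, and the spread within each group was small, the largest coefficient of variation being 4.09%. The means of 328 ± 13.4 and 11.9 ± 0.358 CPM (SD, n = 3 each) gave a log2 fold change of -4.78 (standard error 0.07), 27.5-fold lower. Its promoter, shown above, held the most GC boxes of the entries used.

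*Cxcr4* (ENSMUSG00000045382, chromosome 1, 128515936 to 128520044, minus strand) had 13.7, 14.3 and 13.2 CPM in Control (NT), against 35.7, 33.9 and 33.5 CPM in KD-1. The groups were 2.35-fold apart at their nearest libraries, and the log2 fold change was 1.32 (standard error 0.07). *Ackr3* (ENSMUSG00000044337, chromosome 1, 90131689 to 90144473, plus strand), the scavenging receptor, had 13.5, 11.9 and 11.7 CPM in Control (NT), against 17.8, 17.5 and 16.2 CPM in KD-1. Its libraries did not overlap either, but at a log2 fold change of 0.48 (standard error 0.09, 95% interval 0.27 to 0.68) it lay just outside the fold required for a call, 0.585 on the log2 scale.

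Both CXCL12 receptors lie on chromosome 1, whose genes were shifted as a whole. The median log2 fold change of the 869 other tested genes of chromosome 1 was 0.49, with 40.2% called higher and 7.83% called lower, against a median of -0.01 over all genes tested. Relative to the median of chromosome 1, *Cxcr4* was higher by 0.83 and the value of *Ackr3* was -0.01. The latter is smaller than the standard error of the log2 fold change of *Ackr3* (0.09). For the chromosomes of the other tested members the median lay between -0.08 and 0.06. Whether the shift of chromosome 1 had a part in the rise of *Cxcr4* or in the higher values of *Ackr3* was not tested.

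In the KIT system the receptor rose and the ligand fell. *Kit* (ENSMUSG00000005672, chromosome 5, 75735576 to 75817404, plus strand) had 513, 887 and 1573 counts in Control (NT), against 3050, 3221 and 6102 in KD-1, that is 24.7, 26.3 and 28.4 CPM against 72.8, 74.0 and 70.3 CPM. The groups were 2.47-fold apart at their nearest libraries, with means of 26.5 ± 1.83 and 72.4 ± 1.92 CPM (SD, n = 3 each). The log2 fold change was 1.45 (standard error 0.07), the largest rise among the 9 members tested. *Kitl* (ENSMUSG00000019966, chromosome 10, 99851492 to 99936278, plus strand) had 16.7, 13.6 and 14.1 CPM in Control (NT), against 8.63, 8.46 and 9.67 CPM in KD-1. Its groups did not overlap, and its log2 fold change of -0.72 (standard error 0.11, 95% interval -0.97 to -0.47) lay just inside the fold required.

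**Figure D2:**
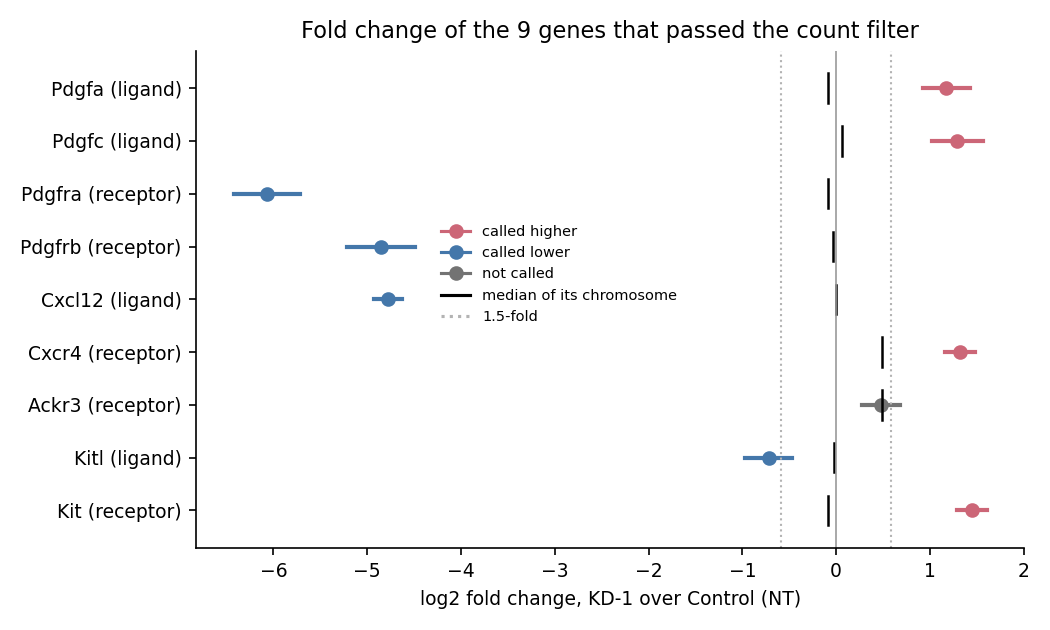
Log2 fold change of KD-1 over Control (NT) (horizontal) for the 9 tested genes (vertical), with 95% intervals from edgeR, the median of the other tested genes of each chromosome (black ticks) and a 1.5-fold change (dotted). *Pdgfra*, *Pdgfrb* and *Cxcl12* stand at -6.07, -4.85 and -4.78, and the value of *Ackr3* coincides with the median of chromosome 1.

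Of the 9 members tested, 8 were called (37.7% of all genes were), 4 higher (19.7% of all genes) and 4 lower (18.1% of all genes), and the libraries of the groups did not overlap in any of the 9 (70.6% of all genes). As the members were selected on this contrast, nothing is read from these counts. Their median log2 fold change was 0.48, and the median of its absolute value was 1.32, against -0.01 and 0.49 over all genes tested. The size of the change was uneven: 0.774% of the genes tested had a larger absolute log2 fold change than *Pdgfra*, 1.34% than *Pdgfrb* and 1.39% than *Cxcl12*, but 13.7% than *Kit*, 34.8% than *Kitl* and 50.8% than *Ackr3*. The biological coefficient of variation, which the choice of the genes did not use, ran from 6.41% in *Cxcr4* to 11.6% in *Pdgfrb*. Among the 500 genes nearest in level, *Cxcr4* stood at the 9.2 percentile of this spread and *Pdgfra* at the 87.2 percentile.

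Ligands were set beside receptors of their system per length in 7 pairs of tested genes, and *Pdgfb*, which was not tested, has no ratio. As PDGF-A and PDGF-C act mainly through PDGFRα, their ratios to *Pdgfrb* compare levels and not a ligand with its main receptor. Levels per length are CPM divided by the kilobases of the gene's merged exons. In Control (NT), *Pdgfa* was below *Pdgfra*, the log2 ratio of ligand over receptor being -2.15, -1.43 and -2.07 in the 3 libraries, and in KD-1 it was above it, at 5.46, 5.50 and 5.25. The mean log2 ratio thus went from -1.88 ± 0.40 to 5.40 ± 0.14 (SD, n = 3 each). *Pdgfc* over *Pdgfra* went from a mean of -1.93 to 5.46, and against *Pdgfrb* the ligands *Pdgfa* and *Pdgfc* went from -0.49 and -0.54 to 5.58 and 5.64. The place of these ligands against *Pdgfrb* in Control (NT) depends on the gene length, since with the longest transcript the mean log2 ratios were 0.13 and -0.05, with libraries on both sides of 0.

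In the CXCL12 system the order turned the other way round. *Cxcl12* over *Cxcr4* had log2 ratios of 2.44, 2.27 and 2.43 in Control (NT), against -3.83, -3.67 and -3.67 in KD-1, so that the ligand transcript exceeded that of the receptor only in Control (NT). *Cxcl12* over *Ackr3* went from 4.69 ± 0.07 to -0.57 ± 0.10. With the longest transcript as the length, this ratio had a mean of -0.10 in KD-1, with libraries from -0.21 to -0.01, close to equal levels. *Kitl* was below *Kit* in both groups, with a mean log2 ratio of -0.66 ± 0.24 in Control (NT), against -2.84 ± 0.14 in KD-1, a shift of -2.18. In none of the 7 pairs did the ratios of the groups overlap. This follows from the members' own values, since ligand and receptor moved in opposite directions in every pair. The ratios combine fold changes by which the genes were chosen and are given as a description.

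**Figure D3:**
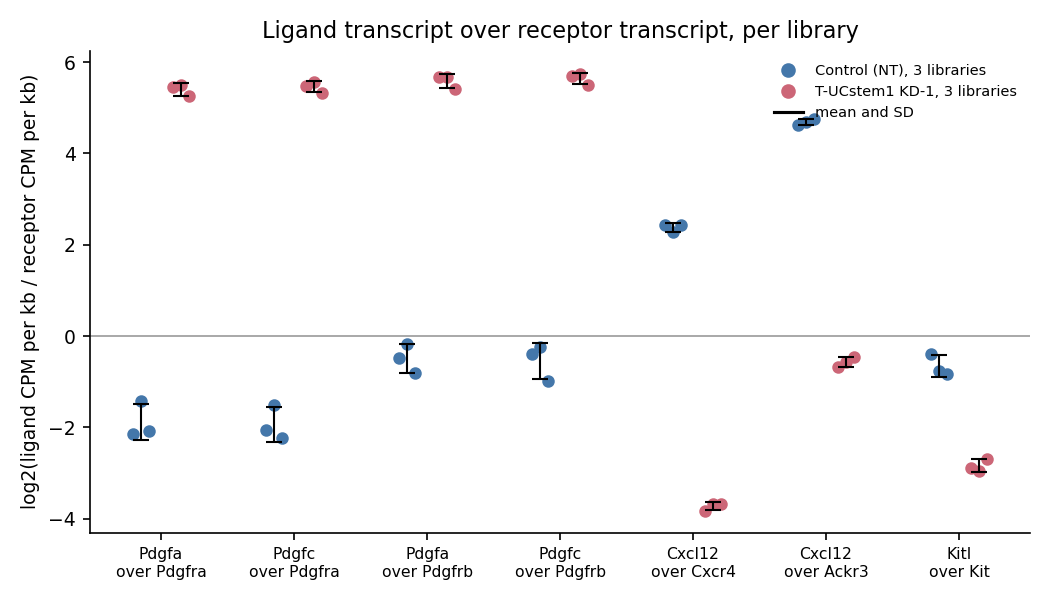
Log2 of the ligand's over the receptor's CPM per kb of merged exons (vertical) for 7 pairs of a ligand and a receptor of the same system (horizontal). Points are libraries and bars the mean and SD of each group. On this length the PDGF pairs lie below 0 in Control (NT) and above 5 in KD-1, the CXCL12 pairs lie above 0 in Control (NT) and below 0 in KD-1, and *Kitl* over *Kit* lies below 0 in both.

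Per length, *Cxcl12* was the highest of the members in Control (NT), at 39.3 ± 1.61 CPM per kb, followed by *Cxcr4* at 7.55 ± 0.285, *Pdgfra* at 4.97 ± 0.733 and *Kit* at 2.79 ± 0.194 (SD, n = 3 each). Then came *Pdgfrb* (1.89 CPM per kb), *Kitl* (1.77), *Ackr3* (1.53), *Pdgfa* (1.35) and *Pdgfc* (1.30), each of which overlapped its neighbour in this order, and *Pdgfb* at 0.0232. In KD-1 the order was led by the receptors *Cxcr4*, at 18.8 ± 0.639 CPM per kb, and *Kit*, at 7.64 ± 0.203. *Pdgfc* (3.17) and *Pdgfa* (3.04) overlapped, *Ackr3* (2.12), *Cxcl12* (1.43) and *Kitl* (1.07) were separate from their neighbours, and *Pdgfra* (0.0722) overlapped *Pdgfrb* (0.0637) just above *Pdgfb* (0.0364). By length of the longest transcript, the order in Control (NT) was *Cxcl12*, *Pdgfra*, *Cxcr4*, *Kit*, *Pdgfa*, *Kitl*, *Pdgfrb*, *Pdgfc*, *Ackr3* and *Pdgfb*. In KD-1 the mean of *Pdgfa* then stood above that of *Pdgfc*, and the other members kept their places.

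*Pdgfra* and *Kit* are neighbours on chromosome 5 and moved in opposite directions. Their annotated spans are 377 kb apart, and the 2 genes of the table that lie between them, the pseudogenes *Gm42799* and *Gm18345*, had 0 counts in all 6 libraries. Within 1 Mb of the stretch from the start of *Pdgfra* to the end of *Kit*, 14 other genes were tested. Of these, 2 were called higher (19.7% of all genes were) and 2 lower (18.1% of all genes), and their median log2 fold change was -0.04. *Kdr*, the VEGF receptor gene on the far side of *Kit*, fell from 1.92 ± 0.432 to 1.06 ± 0.152 CPM (log2 fold change -0.83, adjusted p = 0.018, edgeR's quasi-likelihood test), a call that was lost without the KD-1 library of middle or of highest depth (adjusted p = 0.078 and 0.060). *Rasl11b*, a RAS-like gene, also fell (-1.60, adjusted p = 3.1e-06), and *Lnx1*, which encodes an E3 ubiquitin ligase, rose (0.70, adjusted p = 0.010). *Pdcl2*, a phosducin-like gene of the testis, rose by 3.52 on the log2 scale (adjusted p = 0.00071), from 14, 0 and 29 to 171, 172 and 465 counts.

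The other 10 neighbours (*Scfd2*, *Fip1l1*, *Chic2*, *Srd5a3*, *Tmem165*, *Clock*, *Ube2n-ps1*, *Exoc1*, *Cep135* and *Cracd*) had log2 fold changes between -0.29 and 0.37 and were not called. *Chic2*, the nearest tested gene to *Pdgfra*, had 28.2 ± 2.50 CPM in Control (NT), against 29.4 ± 1.56 in KD-1. *Gsx2*, a homeobox gene between *Chic2* and *Pdgfra*, had 0, 4 and 0 counts in Control (NT), against 14, 6 and 6 in KD-1 and was not tested.

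**Figure D4:**
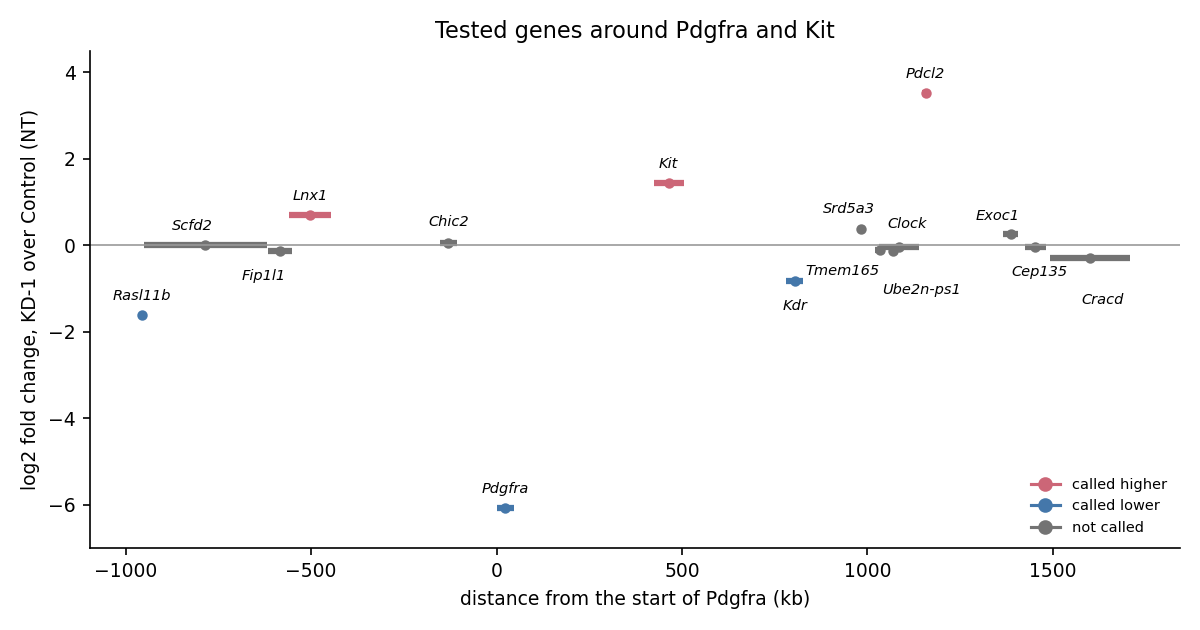
Log2 fold change of KD-1 over Control (NT) (vertical) of the tested genes around *Pdgfra* and *Kit*, against the distance of the gene from the start of *Pdgfra* in kb (horizontal), lines spanning each gene and points marking its middle. *Pdgfra* (-6.07) and *Kit* (1.45) were chosen with their difference between the groups known. Of their 14 neighbours, 10 lie between -0.29 and 0.37, while *Pdcl2* (3.52) and *Rasl11b* (-1.60) changed more than *Kit*.

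The other genes of the 3 pathways were taken from 7 lists of 150 genes, of which 116 were tested, 21 were called higher (19.7% of all genes were) and 25 lower (18.1% of all genes). Their median log2 fold change was -0.09, against -0.01 over all genes. Of the PDGF processing, co-receptor and other family genes, 12 of 13 were tested, 3 being higher and 6 lower, with a median of -0.63. *Pdgfd*, a ligand of PDGFRβ, rose from 0.111 to 1.12 CPM (log2 fold change 3.49, adjusted p = 0.0032). *Nrp1*, a co-receptor of several growth factors, fell by 3.46 on the log2 scale (adjusted p = 8.0e-07). *Pcsk5*, a proprotein convertase, and *Plat*, the protease that cleaves latent PDGF-C, fell too, with log2 fold changes of -2.63 and -2.52 (adjusted p = 9.7e-08 and 2.9e-08). The fall of *Plat*, from 49.1 to 8.57 CPM, thus stood beside the rise of the *Pdgfc* transcript.

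Of the 13 other receptors and ligands of the same receptor classes, 10 were tested, 1 being higher and 2 lower. *Vegfd* had a log2 fold change of 0.91 (adjusted p = 0.013), *Vegfa* of -0.60 (adjusted p = 0.00066) and *Kdr* of -0.83, as given above. The call of *Vegfd* was lost without the KD-1 library of middle depth (adjusted p = 0.056), and that of *Vegfa* was lost under 7 alternatives, among them the leaving out of the Control (NT) library of middle depth (-0.49) or the KD-1 library of lowest or middle depth (-0.57 and -0.58). *Csf1r* and *Flt3*, the closest relatives of *Kit* and the PDGF receptors, were not tested, with means of 0.333 and 3.17 counts over the libraries. Of 36 adaptors and effectors of receptor tyrosine kinases, all passed the filter, 3 being higher and 10 lower. Of the 10, *Shc1* lost its call under 7 alternatives, *Stat5a* under 2 and *Src* under 1. *Yes1*, a kinase of the SRC family, and *Pik3cb*, a catalytic subunit of PI 3-kinase, rose by 1.44 and 1.34 on the log2 scale, while *Map2k2*, the gene of MEK2, and *Akt1* fell, with log2 fold changes of -1.14 and -0.99 (adjusted p between 7.2e-07 and 0.00022).

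Of 22 listed genes that dampen these receptors, 21 were tested, 4 being higher and 4 lower. *Dusp5*, a phosphatase of ERK, fell from 8.21 to 1.30 CPM (log2 fold change -2.66), and *Sh2b2*, an adaptor, fell by 0.89. *Spry4* and *Spred1*, inhibitors of the RAS and ERK cascade, rose by 1.44 and 0.92 (adjusted p of the 4 genes between 2.2e-06 and 0.0070). *Cbl*, the ubiquitin ligase that marks active KIT and PDGF receptors for turnover, was at the threshold, with a log2 fold change of 0.60, and lost its call without the middle Control (NT) library (0.42) or the deepest KD-1 library (0.58). *Ptpn6*, a phosphatase gene called higher, lost its call without the shallowest Control (NT) library (0.53).

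Around CXCL12, 25 of 29 modulators and effectors were tested, 6 being higher and 1 lower. *Rgs16*, which shortens G protein signalling, rose from 2.45 to 23.5 CPM (log2 fold change 3.24, adjusted p = 6.4e-08). *Dpp4*, the peptidase that inactivates CXCL12, rose by 1.97, *Elmo1*, a partner of DOCK proteins in RAC activation, by 1.66, and *Sdc4*, a heparan sulfate proteoglycan, by 1.51 (adjusted p between 4.3e-07 and 1.9e-06). The gene that fell was *Mif*, which encodes another ligand of CXCR4 (log2 fold change -1.45, adjusted p = 0.00021). Of 25 other chemokine receptors and CXC ligands, 22 did not pass the filter, and *Cxcr3*, *Cxcr6*, *Ccr1*, *Cxcl2* and *Cxcl9* had 0 counts in all 6 libraries. *Ackr1*, a scavenging receptor, was the gene called (1.81, adjusted p = 0.015, from 0.246 to 0.921 CPM), but not without the deepest Control (NT) library or the shallowest KD-1 library (adjusted p = 0.063 and 0.058). *Cxcr2* had a log2 fold change of 0.52 and was not called.

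Of 12 genes of KIT ligand shedding and of KIT-dependent lineages, 9 were tested, 3 being higher and 2 lower. The sheddases *Adam17*, *Adam9* and *Adam10* were not called, with log2 fold changes of -0.06, -0.56 and -0.39, and *Mmp9*, a protease that releases KITL, fell from 0.908 to 0.160 CPM (-2.53, adjusted p = 0.00045). *Mitf*, the melanocyte factor, and *Myb*, a factor of blood progenitors, rose by 1.46 and 1.39, whereas *Lmo2*, of the same lineage as *Myb*, fell by 1.93 (adjusted p between 5.9e-06 and 0.00026). *Tyr*, a pigment enzyme, was higher by 0.81 on the log2 scale (adjusted p = 0.041), but lost its call when either the lowest or middle Control (NT) library or the middle or highest KD-1 library was left out (adjusted p between 0.063 and 0.15), and also with DESeq2 or with no filter (adjusted p = 0.053 for both). *Shc1*, *Stat5a*, *Src*, *Ptpn6*, *Cbl*, *Mif*, *Cxcr2*, *Tyr* and the sheddases were singled out after their values had been seen.

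**Figure D5:**
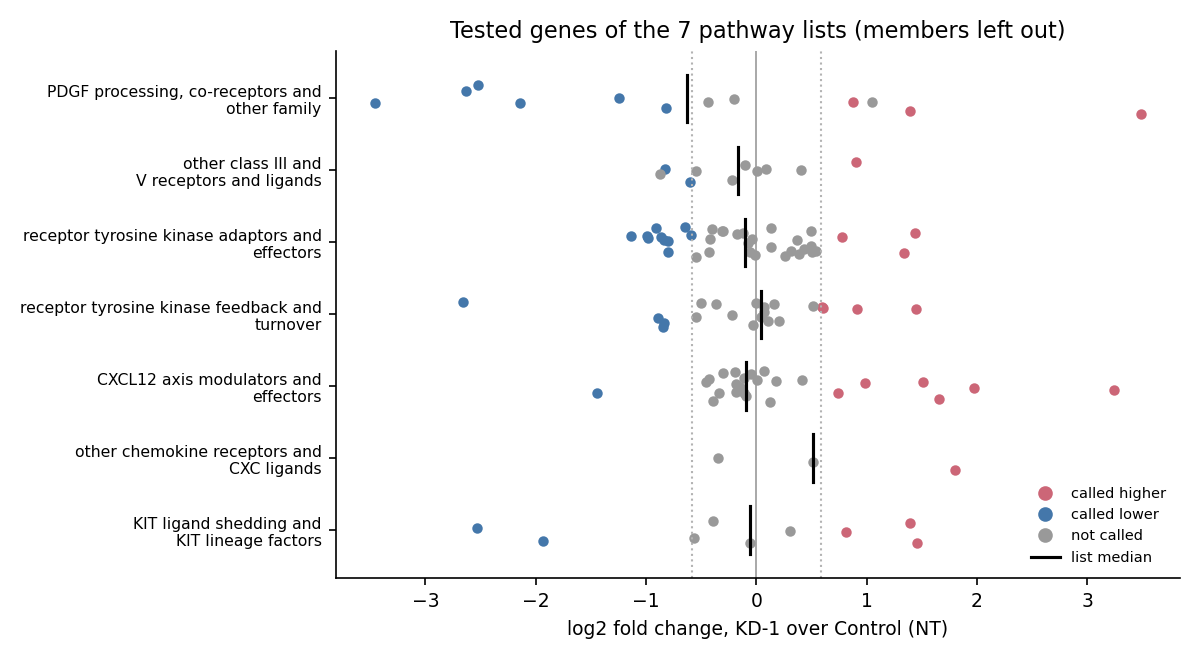
Log2 fold change of KD-1 over Control (NT) (horizontal) of the 116 tested genes of the 7 pathway lists (vertical), points being genes, black bars list medians and dotted lines a 1.5-fold change. The list of PDGF processing and co-receptor genes has 6 of 12 genes called lower, and 22 of 25 genes of the list of other chemokine receptors and ligands are not plotted because they did not pass the filter.

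Markers of cell types in which these genes are known are given beside the shares over all genes tested, 19.7% called higher and 18.1% called lower. For paraxial mesoderm and somites, where *Pdgfra* is used, the 11 of 12 listed markers that were tested were all called lower. The summed level of the list went from 569 to 658 CPM in Control (NT) to 48.6 to 49.3 CPM in KD-1. *Meox1* made up most of the sum in Control (NT), at 371 CPM, and *Pax3* most of that in KD-1, at 42.2 CPM. *Tbx6* lost its call without the deepest KD-1 library (adjusted p = 0.064) and *Mesp2* without the middle or deepest library of either group (adjusted p between 0.052 and 0.14). *Msgn1* had at most 3 counts in every library. Of primitive and extraembryonic endoderm markers, 1 was higher and 4 lower of 6 tested, with sums of 309 to 337 and 57.0 to 58.8 CPM. *Lamb1* and *Col4a1* made up most of these sums, at 232 and 76.3 CPM in Control (NT) and 43.9 and 7.09 CPM in KD-1. *Gata4* went from 1.78 to 0.318 CPM, *Gata6* did not pass the filter, and *Ttr* was at or under 3 counts throughout. The gene called higher, *Sox7*, lost its call without the deepest Control (NT) or the shallowest KD-1 library (adjusted p = 0.052 and 0.051). Of mural cell and fibroblast markers, beside *Pdgfrb*, none was higher and 4 were lower of 6 tested, with sums of 12.3 to 13.4 and 2.00 to 2.81 CPM, and *Kcnj8* was at or under 3 counts in every library. *Col1a1* lost its call without the middle or the deepest KD-1 library (adjusted p = 0.060 and 0.062). The part of these cell types in the falls of *Pdgfra*, *Pdgfrb* and *Cxcl12* was not tested.

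On the side of *Kit* and *Cxcr4*, naive pluripotency markers were called higher in 9 of 10 (of all genes, 19.7% were higher and 18.1% lower). Their sums were 458 to 503 CPM in Control (NT), against 1462 to 1498 CPM in KD-1. Primordial germ cell markers were higher in 6 of 9, with sums of 113 to 119 and 212 to 219 CPM. *Dppa3*, *Nanos3* and *Ifitm3* were not called, with log2 fold changes of 0.49, 0.15 and -0.52. *Dazl* was at or under 3 counts in every Control (NT) library. Neural crest and melanoblast markers were higher in 4 and lower in 1 of 7 tested (21.2 to 24.5 and 53.3 to 56.4 CPM), *Sox10* being at or under 3 counts in every Control (NT) library. Definitive endoderm markers, 4 of 10 tested, were higher in 1 and lower in 2 (135 to 159 and 262 to 271 CPM), with *Sox17* at no more than 3 counts in each library of KD-1. *Trh* made up most of this sum, at 130 and 265 CPM, whereas *Cer1* went from 14.6 to 0.0460 CPM and *Foxa1* from 0.808 to 0.129 CPM. Endothelial markers were higher in 3 and lower in 1 of 6 tested (24.7 to 27.4 and 42.6 to 46.0 CPM). *Pecam1* was the largest part of this sum, at 14.5 and 29.4 CPM. The other genes called higher, *Tek* and *Cldn5*, went from 0.719 to 3.53 and from 0.341 to 3.93 CPM. *Cdh5* and *Emcn* had at most 3 counts in each library of KD-1. *Etv2*, the endothelial marker called lower, lost its call with DESeq2 and without the deepest Control (NT) or any single KD-1 library (adjusted p between 0.052 and 0.15). The part of these cell types in the rises of *Kit* and *Cxcr4* was not tested.

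Over the 6 libraries, the gene whose centred log2 profile lay nearest to that of *Pdgfra* was *Stra6*, the receptor for retinol binding protein, at a Euclidean distance of 0.32, followed by *Gpr15lg* (0.54) and *Lrrc32* (0.65). The nearest to *Cxcl12* were *Gm43302* (0.13), *Col26a1* (0.27) and *Ets1* (0.36), of which *Gm43302* had 0.282 CPM in Control (NT), against 0 in KD-1, so that its profile is set mainly by the small constant added before the logarithm. The nearest to *Kit* were the gene ENSMUSG00000044068 (0.08), *Impa2* (0.10) and *Col6a5* (0.10). With 2 groups of 3 libraries, such a distance reflects mainly the difference between the groups and carries no test.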

How the data were processed

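Per the labels, total RNA was extracted with Trizol and libraries were made with an Illumina TruSeq kit. Salmon (version 1.1 in the submitters' processing notes) was run by the study on the paired-end reads, with a Gencode gene model. The values that the authors deposited are estimated counts (expected counts) per gene, in whole numbers and not normalized. The genome build, the summing of transcripts and the use of strand are not given in the sources used here. Reads of near-identical sequences are shared out by Salmon, which makes the counts of such genes uncertain. No gene of the table overlapped a member.

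The columns of the table give the group of a library, but their suffixes do not match the replicate numbers of the labels, and libraries are named by depth. Names, positions and exon lengths came from GENCODE vM39 on GRCm39, which held 35222 of the 35565 identifiers. The test was edgeR's quasi-likelihood test (edgeR version 4.0.16 in R 4.3.3), with genes filtered by filterByExpr, TMM factors (between 0.97 and 1.03), robust estimation and no term besides the group. Adjusted p-values are Benjamini-Hochberg values over the 15110 genes kept. A call needed an adjusted p under 0.05 and a change of over 1.5-fold. Standard errors of log2 fold changes came from the quasi-likelihood F statistic. Values per library are TMM-normalized CPM. A count of 0 was taken to allow 3 counts, and intervals and this limit cover counting error only. Profiles were compared on log2(CPM + 0.01), centred over the 6 libraries. The fit was tested on simulated data with known changes.

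The members, the pathway lists, the marker lists and the alternatives were chosen with earlier results of these data known, and no p-value of this contrast is given for a member. Named are all members, the tested neighbours of *Pdgfra* and *Kit* within 1 Mb, for 3 members the 3 nearest profiles, and of each pathway list up to 4 called genes with the largest absolute log2 fold change and at least 10 counts on average, beside genes that did not pass the filter. Alternatives were DESeq2 (version 1.42.0), limma-voom (limma version 3.58.1), RLE, upper-quartile or no composition factors, other filters, no robust estimation, other fold thresholds, each library left out, another gene length, centring on the chromosome and a narrower window around *Pdgfra* and *Kit*. Protein sequences were not analysed here. Some genes of the lists are not reported here by name.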

Additional observations from a re-analysis of the deposited data

How the results depend on the processing

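The log2 fold changes of the 9 tested members kept their direction in all 126 values from 14 alternatives (DESeq2, limma-voom, other factors, other filters, no robust estimation and each library left out). They ran from -6.18 to -5.98 for *Pdgfra*, -4.97 to -4.75 for *Pdgfrb*, -4.81 to -4.73 for *Cxcl12* and 1.29 to 1.38 for *Cxcr4*. *Kitl* (-0.77 to -0.63) stayed past the fold threshold and *Ackr3* (0.43 to 0.53) short of it. *Pdgfb* had values of 0.83 with DESeq2 and 0.89 with no filter and was not called. Centring on chromosome 1 gave 0.83 for *Cxcr4* and -0.014 for *Ackr3*, the latter smaller than the standard error of its log2 fold change (0.09). Of the members, 4 were higher and 3 lower at an absolute log2 fold change over 1, where *Kitl* was no longer called, and 5 and 4 with no fold threshold, where *Ackr3* was called. An absolute log2 fold change over 1 left 1948 genes higher and 1326 lower over all genes, and 12 and 10 in the pathway lists, and with no fold threshold there were 4676 and 4921, and 34 and 45, since these rules are stricter and looser by construction. Within 500 kb of *Pdgfra* and *Kit*, where 4 genes were tested, 1 was higher (19.7% of all genes) and 1 lower (18.1% of all genes). With the longest transcript as the length, 16 of 20 levels per kb moved by more than 1 SD. No paired analysis was run, because the column suffixes do not match the replicate numbers of the labels and the study's methods describe no pairing of libraries. Pathway and marker genes that lost a call are named beside their lists. *Pdgfb*, the other chemokine receptors and the markers near 0 are limited by depth.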
